A study of Arabidopsis thaliana with 36 samples.

Results

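The 6 arrays described here are those of leaf RNA from Arabidopsis anac017-2 seedlings sprayed with antimycin A (3 arrays) and those of anac017-2 seedlings sprayed with hydrogen peroxide (3 arrays), out of 36 arrays in the study. They were taken by genotype and spray as labelled, and the water arrays of the study were left out of the fit, except for 1 alternative fit in the closing section. The question is how the transcripts of the mutant differ between a block of mitochondrial respiration and an oxidant given directly. The 3 other genotypes received the same sprays and are used to show where anac017-2 differs. Their arrays also share in the variance estimate behind the anac017-2 p-values. Thus 24 sprayed arrays entered the fit, with 16 residual degrees of freedom.

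All seedlings were of ecotype Columbia, grown for 14 days on Gamborg B5 medium with 3% sucrose under 16 h of light and 8 h of dark at 22 °C. They were sprayed 4 h into the light with 50 µM antimycin A, 20 mM hydrogen peroxide or deionised water, and all green leaf tissue was taken 3 h later. The mutants were anac017-2 (described as a gain of function of ANAC017), anac017-1 (described as a T-DNA knock-out of the same gene) and rao2 (from EMS mutagenesis), and wild type was labelled Col:LUC. Each combination of genotype and spray had 3 arrays. Whether the mutants carry the LUC reporter of the wild type is not stated, so a difference from wild type may include a difference of background. No named probe set here belonged to ANAC017, so its transcript was not analysed and the genotype labels could not be checked by it. Whether replicates came from separate plants is not stated. Thus p-values here cover only the spread among the arrays in each fit, which may be technical. In leaf tissue as a whole, fewer cells of a type and less RNA per cell cannot be told apart.

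Antimycin A blocks complex III of the mitochondrial electron transport chain, and electrons that leak upstream of the block form superoxide and hydrogen peroxide inside the organelle. ANAC017 is a membrane-anchored NAC transcription factor of the endoplasmic reticulum; once released it enters the nucleus and switches on genes of mitochondrial stress. These include alternative NAD(P)H dehydrogenases, an alternative oxidase, efflux carriers and small heat shock proteins, a group known as the mitochondrial dysfunction stimulon. Hydrogen peroxide given to Arabidopsis leaves from outside is known to induce heat shock proteins, which keep unfolding proteins soluble.

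The antimycin A arrays of anac017-2 stood far from those of every other genotype. On principal component 1, which held 56.3% of the variance, they lay at 23, 31 and 14.3, and the anac017-2 hydrogen peroxide arrays at 43.8, 9.1 and 35.8. The antimycin A arrays of wild type lay at -80.6, -99.7 and -107.1. Replicate 2 of anac017-2 under hydrogen peroxide stood apart from its group: it correlated with its replicates at r = 0.983 and 0.984, against 0.995 between the other two, over 22746 probe sets that are not independent. Printed differences that changed call or moved by over 1.5 times without it are given both ways, here or in the closing section. The 3' minus 5' signal of 3 control transcripts was 3.18, 3.17 and 3.13 (log2) on the antimycin A arrays and 3.17, 3.03 and 3.14 on the hydrogen peroxide arrays of anac017-2. The 8 measured nuclear photosynthesis genes of green tissue summed to intensities of 129000 to 137000 under antimycin A and 116000 to 136000 under hydrogen peroxide, none of them low. A value was taken as low where it did not exceed the array's lower quartile, 2.45 to 2.56 in log2. The 3 measured guard cell markers summed to 102 to 129 under antimycin A and 87.6 to 109 under hydrogen peroxide, the 2 root markers to 10.2 to 13.8 and 9.94 to 10.9, and the root hair expansin EXPA7 and the meristem peptide CLV3 were low on all 6 arrays. The part of these marker levels in the results was not tested.

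**Figure D1:**
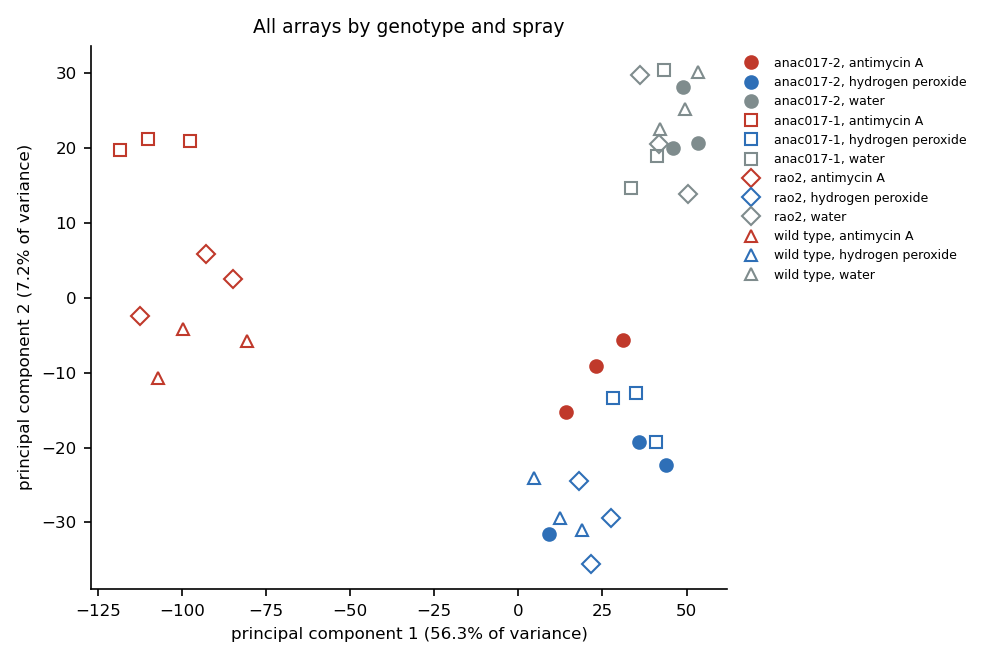
Principal component 1 against principal component 2 for all 36 arrays (1 point per array; filled circles are anac017-2, open symbols the other genotypes; colour gives the spray). The 3 anac017-2 antimycin A arrays lie between 14.3 and 31 on component 1, near the hydrogen peroxide arrays, and the wild type antimycin A arrays lie at -80.6 or below.

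Antimycin A and hydrogen peroxide left transcript profiles in anac017-2 that differed at 813 of 22746 probe sets, or 3.57% (limma, Benjamini-Hochberg adjusted p under 0.05 over all probe sets, with group means and 1 variance per probe set fitted over the 24 sprayed arrays). Of these, 308 (1.35%) were higher and 505 (2.22%) lower under antimycin A, and 77 of the higher and 142 of the lower differed by at least 1 on the log2 scale. Among named genes, heat shock transcripts had the largest negative differences, the largest being -6.76 (log2), and 0 of 12 measured genes of the mitochondrial stimulon were called. The same contrast in wild type called 7494 probe sets (32.9%), in anac017-1 9786 (43%) and in rao2 8019 (35.3%). Fitted on the 6 anac017-2 arrays alone, with 4 residual degrees of freedom, the contrast called 42 probe sets (0.185%), 11 higher and 31 lower, of which 37 were among the 813. Without hydrogen peroxide replicate 2 the fit over all genotypes called 805 (3.54%), and 522 of the 813 were called the same way. The count depended more on other single arrays: it was 474, 431 and 580 without antimycin A replicates 1, 2 and 3, and 1063 and 373 without hydrogen peroxide replicates 1 and 3.

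Heat shock proteins were lower under antimycin A than under hydrogen peroxide. Of 12 measured members of both heat shock lists, 11 were called lower, where 2.22% of all probe sets were, and their median difference was -4.05 against -0.01 over all probe sets. Without hydrogen peroxide replicate 2 the same counts of 6 small heat shock proteins and 5 chaperones and factors were called lower (2.11% of all probe sets), and on the 6 arrays alone 4 and 2 of them (0.136%).

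Among the small heat shock proteins, AT1G53540, a cytosolic class I member, had levels of 6.41, 5.8 and 3.8 (log2 intensity, as for all levels below) on the antimycin A arrays, against 12.11, 11.74 and 12.42 on the hydrogen peroxide arrays. Every antimycin A array lay far below every hydrogen peroxide array, where the naming rule required groups that did not overlap. The difference was -6.76 ± 0.48 (log2, SE of the fit, n = 3 per group, as for all differences below). Its limma adjusted p was 7.4e-07. The SE comes from a variance pooled over the sprayed arrays of all genotypes, not from the anac017-2 arrays alone. For this gene the SD was 1.36 on the anac017-2 antimycin A arrays and 0.34 on the anac017-2 hydrogen peroxide arrays. AT2G29500, of the same class, had 7.83, 5.73 and 5.71 under antimycin A and 11.97, 11.75 and 12.63 under hydrogen peroxide, a difference of -5.69 ± 0.56 (limma adjusted p = 9.79e-06). Antimycin A replicate 1 was the highest of its group for both genes. ATHSP22.0, the member of the endoplasmic reticulum, was low on all 3 antimycin A arrays (2.45, 2.42 and 2.45) and reached 7.46, 8.4 and 8.47 under hydrogen peroxide. With low values raised to the quartile of their array, its log2 level was lower under antimycin A by at least 5.61, and the fit gave -5.67 ± 0.47. The anac017-2 water arrays read 2.5, 2.46 and 2.58 for this gene, near its antimycin A levels.

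AT1G54050 had levels of 8.28, 7.65 and 7.95 under antimycin A and 12.04, 11.54 and 12.58 under hydrogen peroxide, and AT1G52560 had 3.08, 3.18 and 3.12 under antimycin A and 5.87, 6.53 and 6.67 under hydrogen peroxide. The peroxisomal member AT5G37670 had 5.57, 4.79 and 5.05 under antimycin A and 8.15, 8.03 and 8.77 under hydrogen peroxide. The differences of these 3 genes were -4.09 ± 0.34, -3.23 ± 0.31 and -3.18 ± 0.44, all called in limma. The exception was AT5G51440, a mitochondrial small heat shock protein, which also belongs to the stimulon. Its levels of 11.96, 12.13 and 12.05 under antimycin A lay just below 12.39, 12.48 and 13.34 under hydrogen peroxide, and its difference of -0.69 ± 0.55 was not called (limma adjusted p = 0.669).

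The chaperones and their helpers had the same direction. AT1G71000, a J-domain cochaperone, had 5.4, 4.08 and 4.94 under antimycin A and 9.52, 8.56 and 10.86 under hydrogen peroxide (difference -4.84 ± 0.9). AT5G48570, the immunophilin ROF2, had 7.94, 8.41 and 7.34 under antimycin A and 11.93, 11.14 and 12.67 under hydrogen peroxide (-4.02 ± 0.37). HSA32, a protein needed for lasting thermotolerance, had 3.2, 3.29 and 3.59 under antimycin A and 6.8, 6.34 and 7.12 under hydrogen peroxide (-3.39 ± 0.55). None of these groups overlapped, which the naming rule required and which held for 10% of all probe sets in this direction. AT1G72660, a heat-inducible GTP-binding protein, differed by -4.29 ± 0.41, from levels of 2.91, 2.89 and 2.75 under antimycin A and 7.21, 6.57 and 7.65 under hydrogen peroxide. The cytosolic HSP70 gene AT3G09440 was abundant in both groups, at 11.57, 12.01 and 11.89 under antimycin A and 13.03, 12.76 and 13.31 under hydrogen peroxide, and differed by the smallest of the called amounts in both lists, -1.21 ± 0.24 (limma adjusted p = 0.00929). Its call was lost without hydrogen peroxide replicate 3 (adjusted p = 0.0576), and the other 10 called members were called whichever of the 6 arrays was left out.

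Outside the lists, Hop3 and AT2G20560 were also among the 12 named genes with the largest negative differences. Hop3, which bridges HSP70 and HSP90, had 6.36, 7.35 and 6.94 under antimycin A and 10.17, 9.54 and 11.07 under hydrogen peroxide, a difference of -3.38 ± 0.44. AT2G20560, a DnaJ-type cochaperone, had 6.61, 6.89 and 6.73 under antimycin A and 9.94, 9.47 and 10.88 under hydrogen peroxide (-3.35 ± 0.37). The 12th gene, AT4G23493, was low on all antimycin A arrays (2.42, 2.38 and 2.39) and stood at 6.05, 6.31 and 6.95 under hydrogen peroxide. It was thus lower under antimycin A by at least 3.93, and its anac017-2 water arrays were low too (2.31, 2.23 and 2.44). Of these 12 genes, 9 are members of the heat shock lists. In the 6-array fit AT1G53540 had an adjusted p of 0.057 and AT2G29500 of 0.0618, while ATHSP22.0, AT1G72660, AT1G54050, AT4G23493, HSA32 and AT1G52560 were still called.

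**Figure D2:**
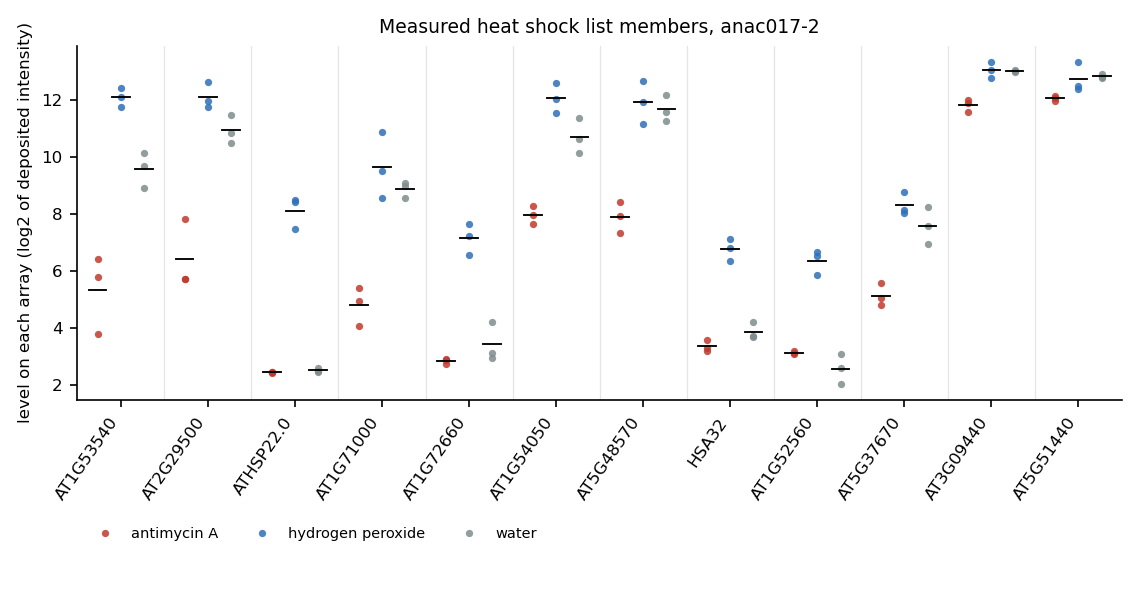
Level on each array (log2 of deposited intensity) of the 12 measured heat shock list members in anac017-2, with antimycin A left of hydrogen peroxide and water at the right of each gene (points are arrays, n = 3 per group; lines are means). For every gene but AT5G51440 the antimycin A arrays lie below the hydrogen peroxide arrays by 1.21 to 6.76 on average.

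The water arrays show how the heat shock genes stood without either agent; the positions below were not tested, and both sprays are set beside the same 3 water arrays. In anac017-2 water arrays AT1G53540 stood at 8.92, 9.68 and 10.14, above its antimycin A levels and below its hydrogen peroxide levels. AT5G48570 stood at 11.26, 11.58 and 12.16 in water, within the hydrogen peroxide range, and AT2G29500 at 10.48, 10.83 and 11.48. For 11 of the 12 members the antimycin A arrays of anac017-2 all lay below its water arrays, as 19.2% of all probe sets did, and for 7 the hydrogen peroxide arrays all lay above them, as 12.1% did. Some of the gaps below water were small. ATHSP22.0 had 2.42 to 2.45 under antimycin A and 2.46 to 2.58 in water, all near the lower quartile. AT1G72660 had 2.75 to 2.91 under antimycin A and 2.94 to 4.22 in water, and HSA32 had 3.2 to 3.59 and 3.69 to 4.21. In wild type the antimycin A arrays lay all below the water arrays for 1 of 12 (31.2% of all probe sets) and all above them for 6 (19.4%), and the hydrogen peroxide arrays all above them for 11 (13.5%). In anac017-1 the antimycin A arrays lay all below the water arrays for 7 of 12 (31.7% of all probe sets). The anac017-2 water arrays themselves lay above all wild type water arrays for 9 of the 12, where 8.93% of all probe sets did. The anac017-1 water arrays did so for 7 (11.2% of all probe sets). For AT1G53540 the anac017-1 water arrays read 9.03, 9.15 and 9.61 and the wild type water arrays 7.75, 7.13 and 7.42.

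In wild type the heat shock genes were lower under antimycin A as well: 11 of the 12 were called, where 19.9% of all probe sets were called lower, and their median difference was -3.75. In anac017-1 and rao2 all 12 were called lower (27.1% and 22.5% of all probe sets). The contrast itself differed between anac017-2 and wild type for 2 of the 12, AT1G53540 and AT1G54050, where 8.99% of all probe sets had a difference below that of wild type. AT5G48570 was called as well without hydrogen peroxide replicate 2 (-1.73, limma adjusted p = 0.0242, against -1.34 and 0.0811 with it), where 8.05% of all probe sets were below. AT1G53540 had 7.52, 7.98 and 8.84 under antimycin A in wild type and 12.31, 12.69 and 12.33 under hydrogen peroxide, so that its contrast was -4.33 there, and the anac017-2 contrast minus that of wild type was -2.42 ± 0.68 (limma adjusted p of the difference 0.0168). AT1G54050 had 9.67, 9.95 and 11.22 under antimycin A in wild type and 12.22, 12.66 and 12.02 under hydrogen peroxide, and the same difference of contrasts was -2.07 ± 0.48 (adjusted p of the difference 0.00553). For both genes the antimycin A arrays of anac017-2 lay below all those of wild type. The contrasts of AT1G53540 in anac017-1 and rao2 were -4.82 and -4.91. The small heat shock gene AT5G51440 differed by -4.12 in anac017-1 and -2.42 in rao2, against -0.63 in wild type.

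Genes higher under antimycin A were not tested for shared families. The 12 named genes with the largest positive differences included a pair of SABATH-type carboxyl methyltransferases, AT5G37990 and AT5G38020, which belong to a family that makes methyl esters of small acids. The differences of these 12 genes lay between 1.95 and 3.42.

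AT1G63530 had 7.05, 6.75 and 7.25 under antimycin A and 3.63, 3.65 and 3.63 under hydrogen peroxide (difference 3.38 ± 0.5, limma adjusted p = 0.000873). Its arrays lay close together in both groups, and it was the only one of the 12 still called on the 6 arrays alone (adjusted p = 0.00729), where 0.0484% of all probe sets were called higher. AT5G37990 had 7.24, 5.21 and 6.73 under antimycin A, against 4.54, 1.8 and 2.57 under hydrogen peroxide, and its spread was wide in both groups (3.42 ± 0.91, limma adjusted p = 0.0461). AT5G38020 had 5.29, 2.59 and 5.05 under antimycin A and was low on all hydrogen peroxide arrays at 2.33, 1.98 and 1.92, so that it was higher by at least 1.78. Its antimycin A replicate 2 stood barely above the quartile.

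AT4G14060, a major latex protein-like gene, had 6.19, 5.97 and 7.16 under antimycin A and 4.76, 2.9 and 3.13 under hydrogen peroxide (2.84 ± 0.63). AT5G48430, an aspartyl protease, had 6.7, 6.61 and 5.97 under antimycin A and 4.52, 3.7 and 2.58 under hydrogen peroxide (2.82 ± 0.45). In water it stood higher than in either, at 7.03, 7.99 and 7.58. AT3G56080, a methyltransferase, had 5.79, 5.73 and 6.03 under antimycin A and 4.04, 3.79 and 2.4 under hydrogen peroxide (2.44 ± 0.6), and JAL33, a jacalin-related lectin, had 9.21, 8.19 and 8.9 under antimycin A and 6.89, 6.57 and 5.81 under hydrogen peroxide (2.34 ± 0.48). The groups of these 4 genes did not overlap, which the naming rule required.

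AT4G28140, an AP2/ERF transcription factor, had 8.55, 7.66 and 8.05 under antimycin A and 6.36, 5.72 and 5.88 under hydrogen peroxide (2.1 ± 0.47), with 5.28, 4.4 and 2.82 in water. HIS1-3, a drought-inducible linker histone, had 7.48, 6.97 and 7.17 under antimycin A and 5.84, 4.45 and 5.3 under hydrogen peroxide (2.01 ± 0.5), with 4.22, 3.82 and 4.66 in water. For both genes water was the lowest group on average. The 3 remaining genes, AT3G28270, AT2G03130 and AT3G60650, differed by 2.18 ± 0.31, 2.1 ± 0.46 and 1.95 ± 0.39. Without hydrogen peroxide replicate 2, AT5G37990, AT4G14060, AT4G28140 and HIS1-3 lost the call, with limma adjusted p of 0.15, 0.0632, 0.0538 and 0.118, while the other 8 kept it. When hydrogen peroxide replicate 3 was left out, these 4 genes, AT3G56080, JAL33, AT5G38020 and AT2G03130 lost it, with adjusted p of 0.0687 (JAL33) to 0.159 (AT3G56080). Without antimycin A replicate 1 the calls of AT5G37990, AT3G56080, JAL33, AT5G38020, AT2G03130, AT4G28140 and HIS1-3 were lost (0.0539 to 0.171), without replicate 2 those of AT5G37990, AT3G56080 and HIS1-3 (0.0512 to 0.0827), and without replicate 3 those of AT5G37990, AT4G14060, AT3G56080, AT5G38020, AT2G03130 and HIS1-3 (0.0545 to 0.129). AT1G63530, AT5G48430, AT3G28270 and AT3G60650 were called whichever of the 6 arrays was left out.

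Several of these 12 differed from wild type in the contrast itself. They were named for a large anac017-2 contrast, which is part of that difference, so calls above wild type were favoured by the choice. AT4G14060, AT3G56080, AT5G38020, AT3G28270 and AT3G60650 had contrasts 3.08, 3.1, 3.01, 2.22 and 1.93 above those of wild type, all called in limma, where 11.7% of all probe sets were above. That of AT5G38020, low on all arrays of 1 spray in each genotype, was 2.41 with low values raised. AT3G28270 had 5.37, 5.22 and 5.67 under antimycin A and 3.37, 2.61 and 3.75 under hydrogen peroxide in anac017-2. In wild type it stood near background in both, at 2.45, 2.31 and 2.31 under antimycin A and 2.52, 2.38 and 2.3 under hydrogen peroxide. Its contrast was called in the opposite direction in anac017-1 (-2.43) and rao2 (-1.04). AT1G63530 was higher under antimycin A in wild type too, with 9.82, 9.35 and 9.92 under antimycin A in wild type and 6, 4.79 and 3.64 under hydrogen peroxide, and its contrast of 4.89 there was not called different from that of anac017-2 (adjusted p = 0.151). AT5G48430, AT4G28140 and HIS1-3 had wild type contrasts of 2.88, 1.98 and 2.03, not called different from anac017-2. These 3 genes were called higher in wild type, anac017-1 and rao2 as well. Without hydrogen peroxide replicate 2 the difference of AT4G14060 from wild type was no longer called (adjusted p = 0.0558).

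**Figure D3:**
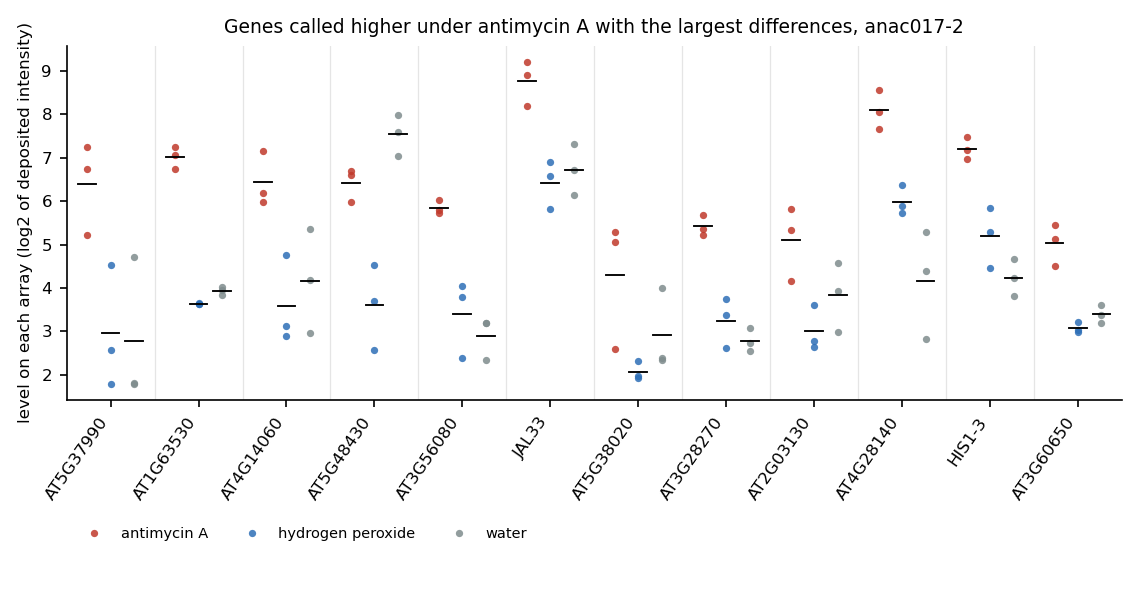
Level on each array (log2 of deposited intensity) of the 12 named genes with the largest positive differences in anac017-2, with antimycin A left of hydrogen peroxide and water at the right of each gene (points are arrays, n = 3 per group; lines are means). The antimycin A arrays lie above the hydrogen peroxide arrays for every gene, as the naming rule required, and AT5G48430 is highest in water.

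The mitochondrial dysfunction stimulon was not called between the sprays in anac017-2: 0 of 12 measured members passed in either direction, where 3.57% of all probe sets did (limma). At an unadjusted p under 0.05 there were 2 higher and 0 lower, NDB4 and AT2G32020 (7.13% and 8.13% of all probe sets), and on the 6 arrays alone 0 were called. The median difference was 0.66 in anac017-2. In wild type 11 of the 12 were called higher under antimycin A, where 13% of all probe sets were, with a median of 2.23, and the contrast was called lower in anac017-2 than in wild type for 4 of the 12 (8.99% of all probe sets). The other mutants also had fewer calls than wild type: in anac017-1 2 of the 12 were called higher and 1 lower (15.9% and 27.1% of all probe sets), and in rao2 6 higher and 1 lower (12.8% and 22.5%). Against anac017-1, the contrast in anac017-2 was called higher for 1 of the 12 and lower for 0 (20.4% and 12.8% of all probe sets).

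AT2G32020, an acetyltransferase-like gene, had the largest difference of the list, with 9.02, 8.75 and 9.36 under antimycin A in anac017-2 and 6.36, 7.35 and 6.58 under hydrogen peroxide. The groups did not overlap, but the difference of 2.28 ± 0.81 was not called (limma adjusted p = 0.153, and 0.0402 on 5 arrays alone without hydrogen peroxide replicate 2). In wild type it had 11.94, 11.92 and 12.08 under antimycin A and 8.48, 7.04 and 6.09 under hydrogen peroxide, so the hydrogen peroxide arrays overlapped between genotypes and the antimycin A arrays did not. NDB4, an external NADH dehydrogenase of the inner membrane, had 3.65, 1.91 and 3.12 under antimycin A in anac017-2 and 1.82, 1.85 and 1.84, all low, under hydrogen peroxide. In wild type it had 6.76, 5.99 and 6.51 under antimycin A and 2.03, 1.79 and 1.8 under hydrogen peroxide, and its contrast in anac017-2 minus that in wild type was -3.49 ± 0.47 (limma adjusted p of the difference 9.18e-05), or -3.36 with low values raised. Its contrast was -0.02 in anac017-1 and 0.41 in rao2, not called in either. Without antimycin A replicate 2 of anac017-2, the low array of its group, the difference of NDB4 between the sprays was called (adjusted p = 0.00696).

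AT2G04050 and AT2G04070, efflux carriers of the MATE family, had antimycin A levels of 10.88, 10.6 and 10.79 and of 7.75, 7.79 and 7.79 in anac017-2. Their hydrogen peroxide levels were 9.45, 10.13 and 9.73 and 5.49, 8.22 and 6.71, so that replicate 2 of AT2G04070 lay above the antimycin A arrays, and its difference was 0.97 with that array and 1.67 without it, called in neither. Wild type had 12.43, 11.7 and 12.43 under antimycin A for AT2G04050, and 8.71, 7.95 and 6.65 under hydrogen peroxide. NDB2, an external NADH dehydrogenase, had 8.52, 8.01 and 8.15 under antimycin A in anac017-2 and 7.9, 8.92 and 8.04 under hydrogen peroxide, where wild type had 10.56, 10.13 and 10.87 under antimycin A and 8.9, 9.3 and 9.03 under hydrogen peroxide. The contrasts in anac017-2 minus those in wild type were -4.04 for AT2G04070, -1.5 for NDB2 and -1.29 for AT1G05060, which with NDB4 were the 4 called members. The 3 further NAD(P)H dehydrogenases NDB1, NDB3 and NDC1 of the alternative pathway differed by 0.3, 0.04 and 0.2 between the sprays in anac017-2. Without hydrogen peroxide replicate 2 the difference was 0.51 for NDB1 and 0.12 for NDC1. Of 5 pathway members 0 were called in limma, and 2, NDB4 and NDC1, had an unadjusted p under 0.05.

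The levels from which the stimulon started were not alike in the genotypes. In water, 9 of the 12 lay higher on all anac017-2 arrays than on all wild type arrays, where 8.93% of all probe sets did. AT2G21640, a marker of oxidative stress, stood at 10.96, 11.28 and 11.29 in anac017-2 water arrays and 7.26, 7.43 and 7.93 in wild type water arrays. AT2G41730 stood at 12.55, 12.5 and 12.54 in anac017-2 water and 8.79, 9.78 and 9.96 in wild type water. Under antimycin A 11 of the 12 lay lower on all anac017-2 arrays than on all wild type arrays (16.9% of all probe sets), and under hydrogen peroxide 4 lay higher on all (10.6%). AT2G21640 had 12.24, 12.13 and 12.42 under antimycin A in anac017-2 and 12.75, 12.45 and 12.83 in wild type. Within anac017-2, 11 of the 12 lay higher on all antimycin A arrays than on all water arrays (17% of all probe sets) and 7 on all hydrogen peroxide arrays (12.1%). These positions were not tested.

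**Figure D4:**
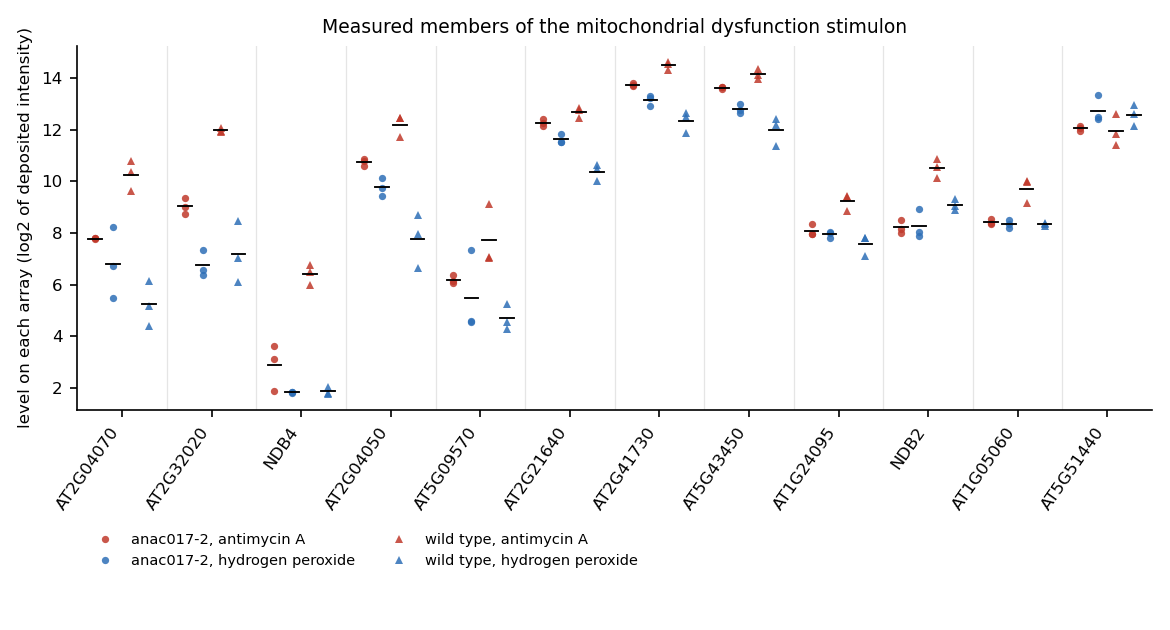
Level on each array (log2 of deposited intensity) of the 12 measured stimulon members under antimycin A and hydrogen peroxide, with anac017-2 (circles) left of wild type (triangles; points are arrays, n = 3 per group; lines are means). AT2G32020 shows 8.75 to 9.36 under antimycin A in anac017-2 and 11.92 to 12.08 in wild type, with overlapping hydrogen peroxide arrays.

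Genes of general oxidant stress that were higher under antimycin A in wild type did not pass the test in anac017-2. Of the 5 reactive oxygen hallmark genes, 0 were called in anac017-2 (limma; 3.57% of all probe sets were) and 5 were called higher in wild type (13%), and the contrast was called lower in anac017-2 for 4 (8.99%). At an unadjusted p under 0.05 there were 2 lower (8.13%). In anac017-1 and rao2, 4 of the 5 were called higher (15.9% and 12.8%). AT1G05340 had 6.3, 5.2 and 6.12 under antimycin A in anac017-2 and 6.59, 7.89 and 7.17 under hydrogen peroxide, a difference of -1.34 ± 0.4 (limma adjusted p = 0.0749, and 0.0345 without hydrogen peroxide replicate 1). In wild type it had 9.84, 9.17 and 10.18 under antimycin A and 7.52, 7.69 and 7.66 under hydrogen peroxide, so that the sign of the mean difference was opposite, and the anac017-2 contrast minus that of wild type was -3.45 (adjusted p of the difference 0.000444). STZ, a zinc finger repressor of stress responses, had 9.32, 9.1 and 10.32 under antimycin A in anac017-2 and 9.42, 9.93 and 10.11 under hydrogen peroxide, against 11.64, 12.45 and 12.41 and 10.27, 10.38 and 9.79 for the same sprays in wild type. AT1G19020 and AT1G57630 had contrasts of -0.26 ± 0.27 and -1.19 ± 0.43 in anac017-2, and 2.55 and 2.21 in wild type. The contrast of AT1G57630 was -0.75 without hydrogen peroxide replicate 2.

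The 6 stress glycosyltransferases, which attach sugars to stress metabolites and hormones, were called higher under antimycin A in wild type for all 6 measured members, where 13% of all probe sets were, and in anac017-1 and rao2 for 5 and 6 of them (15.9% and 12.8%). In anac017-2 their median difference was -0.77, and 1 was called, lower (2.22% of all probe sets). UGT73B5 was called lower too without hydrogen peroxide replicate 2 (-1.34, limma adjusted p = 0.0342, against -1 and 0.122 with it). The first gene, IAGLU, which glucosylates the auxin indole-3-acetic acid, had 7.62, 7.47 and 7.86 under antimycin A in anac017-2 and 8.45, 8.32 and 8.89 under hydrogen peroxide (-0.91 ± 0.19, limma adjusted p = 0.0111). That call was lost without antimycin A replicate 2 (adjusted p = 0.0593) and without hydrogen peroxide replicate 3 (0.0723). In wild type the same gene had 9.02, 9.03 and 9.17 under antimycin A and 8.07, 8.34 and 7.95 under hydrogen peroxide (0.96, adjusted p = 0.000687). The contrast was thus called in opposite directions, and the difference between the genotypes was -1.86 ± 0.26 (adjusted p = 0.000137). UGT73B4 had 6.24, 4.95 and 6.55 under antimycin A in anac017-2 and 6.45, 5.67 and 7.99 under hydrogen peroxide, against 10.7, 10.94 and 10.7 and 7.88, 7.46 and 6.32 for the same sprays in wild type. UGT73B4, UGT73B5, UGT87A2 and IAGLU were the 4 called lower than in wild type (8.99% of all probe sets).

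Nuclear genes of oxidative phosphorylation had 3 of 13 measured members called lower and 0 higher (2.22% and 1.35% of all probe sets), with a median of -0.12. At an unadjusted p under 0.05 there were 6 lower and 0 higher (8.13% and 7.13%). More were called lower in the other genotypes: 9 in wild type, 9 in anac017-1 and 6 in rao2 (19.9%, 27.1% and 22.5%). In rao2 1 was called higher (12.8%). AT5G25450, a small subunit of complex III, the complex that antimycin A binds, had 8.24, 7.99 and 7.75 under antimycin A and 10.75, 10.36 and 11.4 under hydrogen peroxide, with 9.47, 9.77 and 10.39 in water (-2.84 ± 0.26, limma adjusted p = 4.96e-06). Its contrasts in wild type, anac017-1 and rao2 were -2.26, -2.73 and -2.25, all called. The difference from wild type was not called (limma adjusted p = 0.315). AT4G32470, listed for the same complex, had levels of 12.03 to 12.09 under antimycin A and 11.95 to 12.31 under hydrogen peroxide and a difference of -0.04 ± 0.08. The cytochrome c gene CYTC-2 had 10.32, 9.89 and 10.42 under antimycin A and 10.72, 10.79 and 11 under hydrogen peroxide (-0.63 ± 0.12), while its paralog CYTC-1 differed by -0.12 ± 0.07 and was not called. The iron-sulphur subunit of complex II SDH2-1 had 9.73, 9.6 and 9.82 under antimycin A and 10.01, 10.5 and 10.19 under hydrogen peroxide (-0.51 ± 0.12), and its call was lost without antimycin A replicate 1 or 2 (adjusted p of 0.0693 and 0.12) and without hydrogen peroxide replicate 2 or 3 (0.102 and 0.0723). CYTC-2 lost its call without hydrogen peroxide replicate 3 (adjusted p = 0.0541). Among 16 mitochondrion-encoded genes 0 were called in anac017-2 (limma; 1 higher at an unadjusted p under 0.05) and 7 were called higher in wild type (13% of all probe sets). Among 69 plastid-encoded genes 0 were called in anac017-2 (1 lower at an unadjusted p under 0.05).

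Antioxidant and detoxification genes had few calls. Of 8 measured antioxidant enzymes, 2 were called lower (2.22% of all probe sets): ATMDAR2, a monodehydroascorbate reductase that recycles ascorbate, had 10.41, 10.14 and 10.62 under antimycin A and 11.2, 11.64 and 11.83 under hydrogen peroxide (-1.17 ± 0.22, limma adjusted p = 0.00529). GR1, a glutathione reductase, had 9.62, 9.4 and 9.53 under antimycin A and 9.86, 10.29 and 9.86 under hydrogen peroxide (-0.48 ± 0.11), and was not called without antimycin A replicate 2 or 3 (adjusted p of 0.096 and 0.0501) or without hydrogen peroxide replicate 2 (0.0708). Of 11 tau class glutathione transferases, which conjugate glutathione to reactive compounds, 1 was called lower (2.22%): GSTU16 had 8.46, 8.41 and 8.4 under antimycin A and 8.92, 8.81 and 9.08 under hydrogen peroxide (-0.51 ± 0.13), and kept its call only where hydrogen peroxide replicate 2 was the array left out (adjusted p of 0.0643 to 0.173 without any of the other 5 arrays). All 3 genes had hydrogen peroxide arrays above all antimycin A arrays, as 10% of all probe sets did.

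Other calls among the lists were single genes. WES1, a GH3 enzyme that conjugates auxin to amino acids, was the only list member called higher, with 7.92, 7.95 and 7.8 under antimycin A and 7.25, 6.96 and 6.61 under hydrogen peroxide (0.95 ± 0.24, limma adjusted p = 0.0322). Its call was lost without any 1 of the antimycin A arrays and without hydrogen peroxide replicate 2 or 3 (adjusted p of 0.0662 to 0.159). AT4G33560, from the low oxygen list, had 2.39, 3.6 and 2.33 under antimycin A, 2 of them low, and 5, 5.69 and 6.49 under hydrogen peroxide. With the low values raised it was lower under antimycin A by 2.88. The median of the 5 low oxygen genes was -1.96, and 4 of them were lower at an unadjusted p under 0.05 (8.13% of all probe sets). ATG8H, a ubiquitin-like protein of autophagosomes, had 6.94, 6.84 and 7.3 under antimycin A and 7.66, 7.89 and 7.78 under hydrogen peroxide (-0.75 ± 0.18) and lost its call without antimycin A replicate 1 or 2 (adjusted p of 0.102 and 0.133) and without hydrogen peroxide replicate 2 or 3 (0.0839 and 0.0952). These were 1 of 4 auxin response genes, 1 of 5 low oxygen genes and 1 of 10 autophagy genes, where 1.35% of all probe sets were called higher and 2.22% lower.

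The other lists had 0 calls in anac017-2 (limma) with up to 8 measured members each. Most genes of each list had no probe set named for them alone, so these families were only partly covered. The lists were the unfolded protein response (6 measured), calcium and MAP kinase signalling (6), nuclear photosynthesis (8), flavonoid synthesis (5), cell wall expansion (4), cell division (4), WRKY factors (3), abscisic acid and drought (3), salicylate (2), jasmonate (2), sulfate assimilation (2), ethylene (1), NAC factors (1) and the clock (1). At an unadjusted p under 0.05 these lists together held 5 higher and 7 lower of their measured members, flavonoid synthesis 3 of them, where 7.13% and 8.13% of all probe sets were. BZIP60, a transcription factor that restores folding in the endoplasmic reticulum, had 11.84, 11.82 and 12.27 under antimycin A and 10.75, 11.61 and 11.45 under hydrogen peroxide (0.71 ± 0.22, limma adjusted p = 0.0979, and 0.0481 with all 36 arrays in the fit). CHIL, a chalcone isomerase-like protein of flavonoid synthesis, had 4.49, 1.72 and 4.09 under antimycin A, 6.18, 4.67 and 5.64 under hydrogen peroxide and 7.23, 7.69 and 7.53 in water (-2.07 ± 0.64, adjusted p = 0.0912, and 0.0269 with all 36 arrays). CML41, a calmodulin-like protein, had 4.29, 3.75 and 3.81 under antimycin A and 5.07, 7.37 and 4.86 under hydrogen peroxide, where replicate 2 was the high array (-1.81 ± 0.62, adjusted p = 0.132), and the difference was -1.01 without it. WRKY53 had 8.92, 9.12 and 10.84 under antimycin A and 7.87, 10.47 and 7.56 under hydrogen peroxide, with replicate 2 again the high array of its group; the difference was 0.99 with it and 1.91 without it, called in neither.

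Against wild type, the contrast between the sprays differed in anac017-2 at 4714 probe sets (20.7%), 2670 (11.7%) above and 2044 (8.99%) below, and against anac017-1 at 7556 (33.2%). The count against wild type without hydrogen peroxide replicate 2 was 3997 (17.6%). The SD of the log2 difference over all probe sets was 0.4 in anac017-2, against 0.79 in wild type, 1 in anac017-1 and 0.85 in rao2. Over the 2528 probe sets called in wild type with a difference of at least 1, the median ratio of the anac017-2 difference to that of wild type was 0.05, and it was 0.03 over the 1555 higher and 0.1 over the 973 lower in wild type. Over the 3973 such probe sets of anac017-1 the median ratio was 0.01, and over the 2736 of rao2 it was 0.02. The contrasts of anac017-2 and wild type correlated with r = 0.23 over all probe sets, which share the normalization and are not independent.

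Part of the anac017-2 calls were shared with wild type, in both directions. Higher in both genotypes were 119 probe sets, which is 38.6% of the higher calls of anac017-2 and 4.01% of those of wild type. Lower in both were 243, which is 48.1% of the lower calls of anac017-2 and 5.37% of those of wild type. A further 28 were called higher in anac017-2 and lower in wild type, and 72 lower in anac017-2 and higher in wild type. Of all probe sets, 13% were called higher and 19.9% lower in wild type.

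The 6 named genes with the largest negative differences from wild type all had lower antimycin A levels in anac017-2. Every anac017-2 array lay below every wild type array, as for 16.9% of all probe sets. These levels are part of the difference by which the genes were named. AT4G19370 had 1.85, 1.9 and 1.86 under antimycin A in anac017-2 and 1.86, 5.39 and 1.85 under hydrogen peroxide, where replicate 2 alone was high. In wild type it had 7.3, 7.04 and 7.4 under antimycin A and 1.87, 1.85 and 1.85 under hydrogen peroxide, and the difference of the contrasts was -6.55 ± 0.94. As most of these values are low, it is not exact: it was -5.74 with low values raised and -5.37 without hydrogen peroxide replicate 2. TET9, a tetraspanin of the plasma membrane, had 2.23, 2.29 and 2.26 under antimycin A in anac017-2 and 2.24, 2.25 and 2.29 under hydrogen peroxide, all low, against 8.48, 8.71 and 8.55 and 4.89, 2.28 and 2.24 for the same sprays in wild type (difference -5.33 with low values raised). GRX480, a glutaredoxin that binds TGA transcription factors, had 4.43, 4.24 and 4.09 under antimycin A in anac017-2 and 4.79, 5.75 and 5.42 under hydrogen peroxide, against 8.77, 10.07 and 9.68 and 6.49, 5.69 and 3.16 for the same sprays in wild type. The others were AT2G23270, AT5G22530 and the AP2/ERF gene AT2G33710, with differences of -6.18, -5.49 and -5.38.

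The 6 with the largest positive differences from wild type all had higher antimycin A levels in anac017-2. Every anac017-2 array lay above every wild type array, as for 28.6% of all probe sets. These levels are again part of the difference by which the genes were named. AT4G09500, a UDP-glycosyltransferase, had 5.51, 6.35 and 3.75 under antimycin A in anac017-2 and 5.46, 4.25 and 4.39 under hydrogen peroxide. In wild type it had 2.04, 1.94 and 1.96, all low, under antimycin A and 5.66, 6.22 and 5.48 under hydrogen peroxide, so that the difference of the contrasts was at least 3.78, the fit giving 4.31 ± 0.88 (limma adjusted p = 0.00245). The serine carboxypeptidase-like gene scpl50 had 7.18, 7.14 and 7.12 under antimycin A in anac017-2 and 7.26, 6.86 and 6.9 under hydrogen peroxide, against 5.77, 3.67 and 2.12 and 7.12, 6.87 and 7.16 for the same sprays in wild type. AT5G01790, AT1G23205 (a pectin methylesterase inhibitor-like gene), AT3G56260 and AT5G53710 had differences of 4.08, 3.92, 3.75 and 3.67. With low values raised AT5G01790, AT1G23205 and scpl50 had 3.72, 3.72 and 3.2. None of these 12 was called between the sprays in anac017-2 itself.

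**Figure D5:**
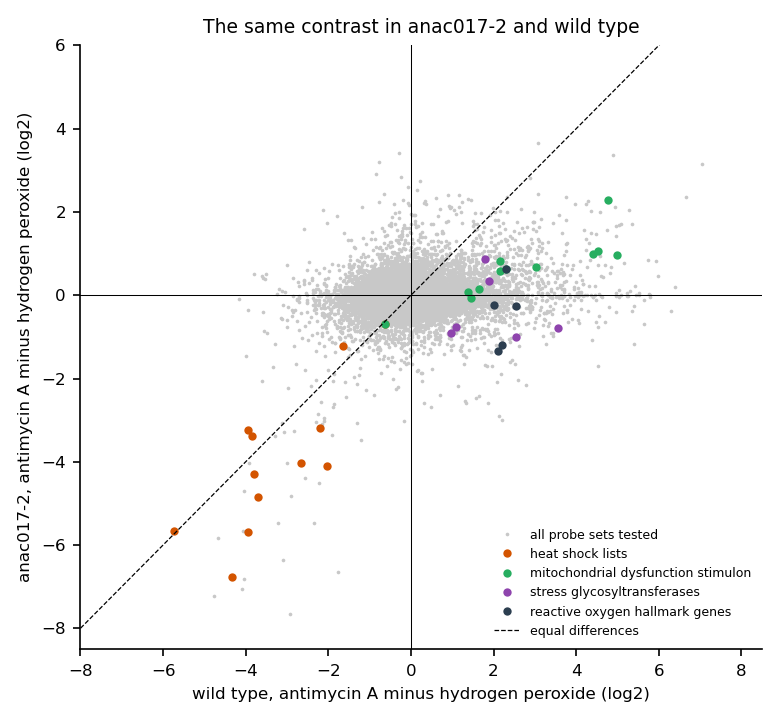
The difference between antimycin A and hydrogen peroxide (log2) in anac017-2 (vertical) against that in wild type (horizontal) for all 22746 probe sets (grey), with 4 groups of list members in colour; the dashed line marks equal differences. The heat shock members lie at or below -1.21 in anac017-2 except AT5G51440 at -0.69, and the stimulon members called higher in wild type lie between -0.06 and 2.28 in anac017-2.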

How the data were processed

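Leaf RNA was hybridised to 36 one-colour Affymetrix ATH1 arrays, 3 for each genotype and spray as labelled. The authors deposited 1 normalised intensity per probe set and array on a linear scale. RMA and GCRMA are named per the submitters' processing notes, without versions and without saying which made these values. Array medians of the deposited intensities lay between 77.7 and 83.6, and no scanner files or detection calls were used here, so that low values have no stated background limit. Such methods can change the size of differences near the bottom of the scale, which affects genes near the lower quartile. The direction of that change is not known here.

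The deposited intensities were converted to log2 with no pseudocount. Of 22810 probe sets, 64 controls were left out and 22746 were tested. Genes were named from the platform annotation and updated through TAIR10.1: 13513 probe sets had 1 gene, 503 several and 8730 none, and 13436 matched a locus, giving 13286 loci. A locus with several probe sets was represented by the one with the highest mean.

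Group means of the 24 sprayed arrays were fitted with limma 3.58.1 in R 4.3.3, with p-values adjusted by Benjamini-Hochberg over all probe sets and a threshold of 0.05. The ± beside a difference is the standard error of that fit. Differences between genotypes were tested as differences of the antimycin A minus hydrogen peroxide contrast. The steps were tested on simulated data. The number of arrays limits the precision.

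The members and gene lists were chosen with earlier results of these data known. Named genes were the 12 with the largest difference in each direction among called probe sets of 1 gene whose groups did not overlap and whose higher group lay above the lower quartile, the 6 with the largest difference from wild type in each direction, and for each list at most 4 called genes, or, with none called, its 2 genes of smallest p. Other genes in the text are list members. A list member counted as measured only where a probe set was named for it alone, so members without one were not analysed. Measured were 12 of 22 listed stimulon genes, 7 of 15 small heat shock proteins and 5 of 23 heat shock chaperones and factors. For WRKY and NAC factors it was 3 of 21 and 1 of 21. Lists of mitochondrial import, the proteasome, camalexin and vascular genes had 0 measured members in this sense. Organelle-encoded lists were resolved by gene name and chromosome. Alternatives are given in the closing section.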

Additional observations from a re-analysis of the deposited data

Results flagged for a closer look

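The contrast between antimycin A and hydrogen peroxide differed between anac017-2 and wild type at 4714 probe sets, and between anac017-2 and anac017-1 at 7556, by limma's test of the difference itself (adjusted p under 0.05). The named genes below passed the same test against wild type, and their values are the log2 contrast in anac017-2 minus that in wild type. Where a group is low these values are not exact: with low values raised AT4G19370 had -5.74, AT4G09500 3.78 and AT5G38020 2.41.

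Among genes higher under antimycin A in anac017-2, the difference was 3.08 for AT4G14060, 3.1 for AT3G56080, 3.01 for AT5G38020, 2.22 for AT3G28270 and 1.93 for AT3G60650. Among heat shock genes it was -2.42 for AT1G53540 and -2.07 for AT1G54050. The genes named for this difference had 4.31 (AT4G09500), 4.08 (AT5G01790), 3.92 (AT1G23205), 3.75 (AT3G56260), 3.67 (AT5G53710) and 3.34 (scpl50) above wild type. Below wild type they had -6.55 (AT4G19370), -6.18 (AT2G23270), -5.49 (AT5G22530), -5.46 (GRX480), -5.44 (TET9) and -5.38 (AT2G33710).

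Of respiratory bypass genes, NDB4 had -3.49 and NDC1 had 0.41. Of stress genes, AT1G05340 had -3.45, AT1G57630 -3.4, IAGLU -1.86, the transcription factor gene WRKY6 -2.27 and the calmodulin-like gene CML37 -3.03. EIN3, a transcription factor of ethylene signalling, had -0.37. The endoplasmic reticulum stress factors BZIP28 and BZIP60 had -0.68 and -1.49, and the autophagy gene ATG8H had -1.01. Of Calvin cycle genes, SBPASE had 0.53 and PRK 1.14. GI, of the clock, had 0.89, the guard cell factor FMA 0.7 and plastid-encoded psaB -0.29. Without hydrogen peroxide replicate 2 of anac017-2 the differences of AT4G14060, EIN3, SBPASE and FMA were no longer called, with limma adjusted p of 0.0558, 0.072, 0.124 and 0.0945.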

How the results depend on the processing

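The number of probe sets called between the sprays in anac017-2 (813) was 42 on the 6 arrays alone, 289 at an adjusted p under 0.01 in the same fit, and 373 to 1063 over the arrays left out in turn. With both the other genotypes and hydrogen peroxide replicate 2 left out (chosen after seeing the data) it was 87. Other settings kept it within 1.5 times: 1188 with all 36 arrays, 737 with a trend and robust prior, 791 with a pseudocount of 16, 843 with a filter on low values, 812 with low values raised, 802 with quantile normalization and 1011 with array weights. The replicate numbers showed no pairing (r of the deviations 0.08, -0.33 and -0.22 for the same number in anac017-2): with a replicate block over all genotypes the count was 855, and with the block within each genotype 313. The count that differed from wild type (4714) was 2465 at an adjusted p under 0.01 and 3702 to 5448 over arrays left out, and those for wild type itself and against anac017-1 stayed within 1.5 times throughout. Of 34 named genes called in anac017-2, 27 lost the call on the 6 arrays alone, 25 on 5 arrays, 14 at 0.01, 12 with the block within genotype, 3 with array weights and 1 each with the pseudocount, quantile normalization and the block, and none with all 36 arrays, a trend and robust prior or low values raised. Calls were gained with all 36 arrays by NDB4 (adjusted p = 0.0235), EIN3 (0.0131), BZIP28 (0.0464), BZIP60 (0.0481), CHIL (0.0269) and ccb452 (0.0259), with array weights by NDB4 (0.0353) and BZIP28 (0.0291), with the block by BZIP28 (0.0413) and ccb452 (0.0435), with the block within genotype by XTH16 (0.0347), and on 5 arrays by AT2G32020 (0.0402). With 1 array left out they were gained by NDB4 (0.00696) without antimycin A replicate 2, by NDC1 (0.0411), AT1G05340 (0.0345), EIN3 (0.00878) and DFR (0.0494) without hydrogen peroxide replicate 1, and by ccb452 (0.0345) without hydrogen peroxide replicate 3.

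Sign changes were seen only in genes not called. On 5 arrays alone AT1G23205 had -0.27, AT4G19370 0.02, TET9 0, AT2G33710 0.13, WRKY6 0.1, PDF1.2 0.8 and CLV3 0.01. With array weights AT5G22530 had 0, TET9 -0.01 and PDF1.2 0.68, with low values raised TET9 and EXPA7 had -0.02, and with quantile normalization CLV3 had 0.01. Over the arrays left out in turn the range was -0.07 to 1.23 for AT4G09500, -0.28 to 0.13 for AT5G01790, -0.27 to 0.83 for AT1G23205, -1.75 to 0.02 for AT4G19370, -0.14 to 0.89 for AT2G23270, -0.03 to 0.09 for AT5G22530, -0.01 to 0.02 for TET9, -0.75 to 0.13 for AT2G33710, -0.59 to 0.1 for WRKY6, -0.1 to 0.02 for NAC014, -0.95 to 0.8 for PDF1.2, -0.05 to 0.17 for SIR, -0.03 to 0.3 for EXPA18 and -0.03 to 0.02 for CLV3. Apart from fewer arrays and the stricter threshold, the cause of each change was not tested.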

Other observations

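The called probe sets of anac017-2 can be placed against its 3 water arrays, which are the same for both sprays; these positions were not tested. Of the 505 probe sets lower under antimycin A than under hydrogen peroxide, 369 (73.1%) had antimycin A arrays all below the water arrays, where 19.2% of all probe sets did, and 235 (46.5%) had hydrogen peroxide arrays all above them (12.1%). Of the 308 higher under antimycin A, 249 (80.8%) had antimycin A arrays all above water (17%), and 82 (26.6%) had hydrogen peroxide arrays all below it (14.4%). The sprayed arrays that made the calls are part of these positions, so they are a description.

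AT4G10270, of the low oxygen list, had 2.85, 3.25 and 7.4 under antimycin A and 6.69, 9.18 and 7.47 under hydrogen peroxide. Antimycin A replicate 3 stood at the level of hydrogen peroxide replicate 3, and the difference of -3.28 ± 1.29 was not called (limma adjusted p = 0.205). AT3G10040, of the same list, differed by -1.96 ± 0.65 (limma adjusted p = 0.119).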
